A study of Mus musculus with 2 samples.

Results

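Open chromatin in exons lying far from the starts of genes was examined in the whole ovary of aged mice. The assay was DNase-seq, which sequences the ends that DNase I leaves where it cuts accessible DNA. A site belonged to the set if it was an autosomal peak of the longer deposited peak list found in both libraries with an overlap of at least 1 bp. Its midpoint also had to lie in an exon of a protein-coding gene of GENCODE M21 and more than 2 kb from the start of any protein-coding transcript. Of 41456 autosomal sites that were found in both libraries and lay more than 2 kb from such starts, 2351 (5.67%) met the rule. They comprised 1044 sites in coding exons, 34 in 5′ UTRs and 821 in 3′ UTRs. Another 452 lay in exons of isoforms with no coding sequence at that place, called other exons here, of which 313 (69.2%) were annotated as retained introns and 139 as processed transcripts. All 63280 autosomal sites of both libraries, promoters included, are the wider set from which they come.

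The animals were female B6CASTF1/J mice, first-generation hybrids of C57BL/6 and CAST, aged 18 to 20 months, and no treatment is named. They form 1 group with 2 libraries, biological replicates 1 and 2, from separate biosample entries that share a donor entry. The labels do not tell whether these were different animals. Their spread may therefore be technical, and no test between groups was possible. Sites are not replicates, and the shares and medians below describe these 2 libraries. Peak strength is the authors' signal, scaled for depth, and the absolute depth is unknown.

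Exons carry the protein code, but their DNA can also be bound by transcription factors and by CTCF, an architectural protein that shapes chromatin loops. Enhancers inside exons have been described for a number of vertebrate genes, and the last exon of a gene, which holds most of the 3′ UTR, is often long enough to hold a whole accessible site. Annotated transcripts do not list every start that a tissue uses, so a site inside an exon can lie beside a start that protein-coding models leave out.

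The following footprints, short stretches protected from DNase I inside a peak, are shown because they lie in strong coding-exon sites and because the overlap of both libraries covered more than 50% of the footprint of each. Each is the union of the footprints of both libraries in GRCm38 (mm10), read 5′ to 3′ on the strand of the gene, and capitals mark a match to one of the sequences searched for. In Inpp5b, which encodes an inositol polyphosphate 5-phosphatase, the 4 footprints of exon 7 lie on the plus strand at chr4:124751453-124751479, chr4:124751521-124751546, chr4:124751546-124751566 and chr4:124751607-124751628.
Inpp5b footprint 1: gcaggcatcagtctcGGAATGcacggc
Inpp5b footprint 2: ctgctttgGGGCGGagccgctgagga
Inpp5b footprint 3: agccggaatttctattggcgg
Inpp5b footprint 4: gctcgccGGGCGGcgggatgaa

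The capitals mark the TEAD sequence GGAATG in footprint 1 and the SP/KLF sequence GGGCGG in footprints 2 and 4. Among all 41456 sites, 10.3% held the former and 8.76% the latter on either strand in the central 150 bp. That window is wider than a footprint. Of 656 footprints in coding sites with the overlap required above, 4 (0.610%) contained the TEAD sequence and 31 (4.73%) the SP/KLF sequence. The match in footprint 4 runs past the central window of its own site. The other footprints, chosen after their values were seen, come from Fry (plus strand, chr5:150466316-150466344), Spi1 (plus strand, chr2:91115189-91115216), Synpo2l (minus strand, chr14:20661155-20661179) and Nos3 (plus strand, chr5:24383698-24383720).
Fry footprint: cagatcctggaggagcgccagctctccag
Spi1 footprint: ccaagcacaaggaggcgctggcgcaccg
Synpo2l footprint: atgcagCCACTAGGGggcaggagtt
Nos3 footprint: gccggTGACGTCAtcggcgtgct

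Capitals mark the CTCF core CCACNAGGG in Synpo2l, held by 3.04% of the 41456 sites in the central 150 bp. In Nos3 they mark the cyclic AMP response element TGACGTCA, held by 0.393% of the sites in that window. The Nos3 element lies outside the window of its own site, so this share does not count it. Of 656 footprints in coding sites with the overlap required above, 3 (0.457%) contained the element. No sequence of the list matched in the Fry and Spi1 footprints. A match is a string of letters and does not show that the factor was bound.

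Per megabase of annotated sequence more than 2 kb from starts, exons held more sites than introns or the space between genes. Coding exons held 40.3 shared sites per Mb, 3′ UTRs 28.2 and other exons 30.01, against 21.2 in introns and 15.6 between genes. Within single libraries, coding exons of replicate 1 held 58.4 sites per Mb and those of replicate 2 held 60.9, averaging 59.7 ± 1.80 (SD, n = 2). For 3′ UTRs the values were 43.4 and 37.7, and for introns 33.7 and 28.2, so the order of the 3 classes was the same in both libraries. The 5′ UTRs had the highest density, 70.9 per Mb, but they rest on 34 sites in 0.479 Mb.

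**Figure D1:**
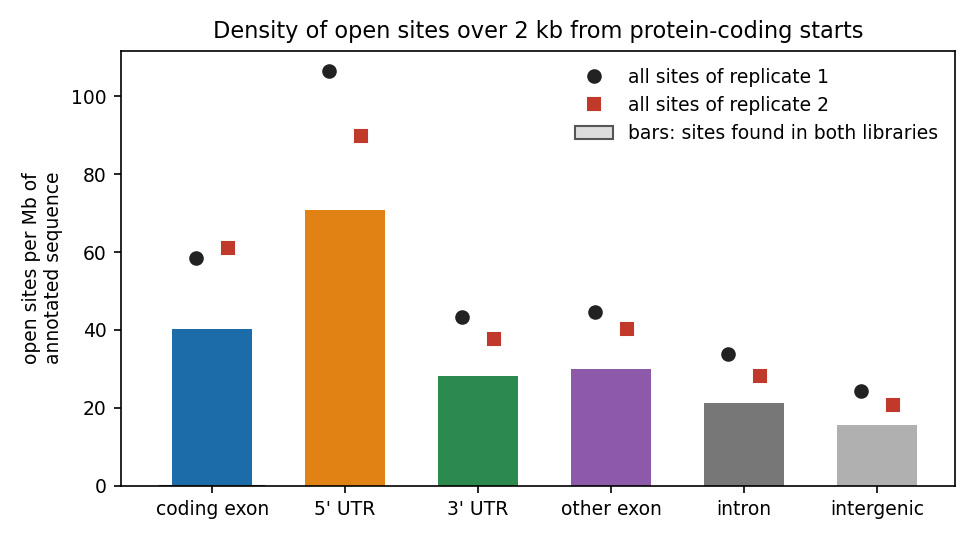
Open sites per Mb of annotated sequence more than 2 kb from protein-coding starts (y axis) for 6 sequence classes (x axis). Bars are sites found in both libraries, circles and squares all sites of replicate 1 and replicate 2; in each library coding exons lie above 3′ UTRs, introns and intergenic sequence.

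Coding exons held more sites than 3′ UTRs, and 3′ UTRs more than introns, in each of 5 bins of distance from the nearest start. At 2 to 5 kb from a start, coding exons held 50.7 shared sites per Mb, 3′ UTRs 31.5 and introns 28.2. Beyond 50 kb the densities were 34.1, 16.8 and 14.9. The median signal of coding sites was lower farther out, from 1.09 in replicate 1 and 1.00 in replicate 2 at 2 to 5 kb to 0.748 and 0.692 beyond 50 kb. Just outside the limit, 135 shared exon sites lay 1.5 to 2 kb from a start, with median signals of 1.13 and 1.09. Just inside it, 128 lay at 2 to 2.5 kb, with medians of 1.24 and 1.18.

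The exon sites were about as strong as other sites far from starts. The median over coding sites was 0.958 for replicate 1 and 0.875 for replicate 2, averaging 0.917 ± 0.0585 (SD, n = 2). Sites in 3′ UTRs had 1.15 and 0.938 (1.04 ± 0.151). Intronic sites had 0.937 and 0.828, so in each library both exon classes lay above the introns, by less than the spread within any class. Sites within 500 bp of a protein-coding start were much stronger, with medians of 2.81 and 2.75. The 34 sites in 5′ UTRs lay between, at 1.38 in each library.

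**Figure D2:**
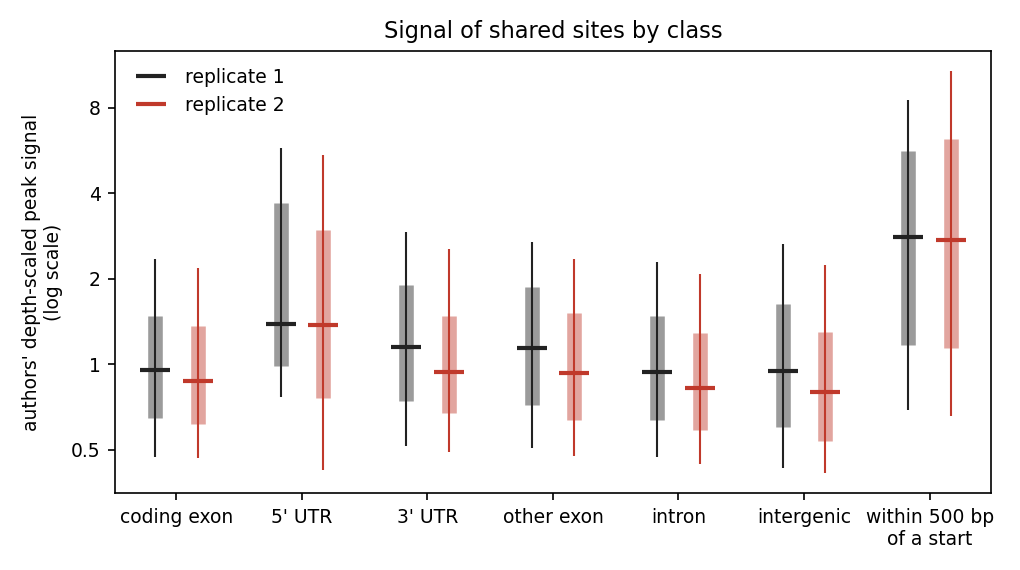
Authors' depth-scaled peak signal (log axis) of shared sites in each class, for replicate 1 (black) and replicate 2 (red). Horizontal marks are medians, thick bars the interquartile range and thin lines the range from the 10th to the 90th percentile; exon, intron and intergenic classes overlap over most of their range, and sites within 500 bp of starts lie higher.

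In the shorter peak list, whose peaks all hold a base with a lower false discovery rate, 1306 of the 2351 exon sites (55.6%) were present in both libraries, against 55.2% of all 41456 sites. A footprint was listed in both libraries for 1853 exon sites (78.8%), against 75.9% of all sites. The exon sites were thus near the background in both respects. By class, the share with a footprint in both libraries was 77.5% in coding exons, 79.9% in 3′ UTRs and 79.4% in other exons. In 62.6% of the exon sites a footprint of one library overlapped one of the other. This overlap was not measured for sites outside exons, so the share has no background.

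The libraries ranked the exon sites alike, though single sites could differ. Across the 2351 sites, which are not independent and share their library, the Spearman coefficient of the signal was 0.776, against 0.746 for introns and 0.969 for sites within 500 bp of starts. The ratio of replicate 2 to replicate 1 was set against its median over all 63280 autosomal sites of both libraries, promoters included. It was within 2-fold of that median for 93.5% of coding and 87.1% of 3′ UTR sites. The share was 88.1% for all 41456 sites more than 2 kb from starts and 89.6% for intronic sites, so 3′ UTRs were near the background. Besides the shared sites, 1163 exon sites were found in replicate 1 only and 933 in replicate 2 only, with median signals of 0.538 and 0.492. Shared sites were therefore 52.9% of all exon sites far from starts, and for introns this share was 52.6%.

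**Figure D3:**
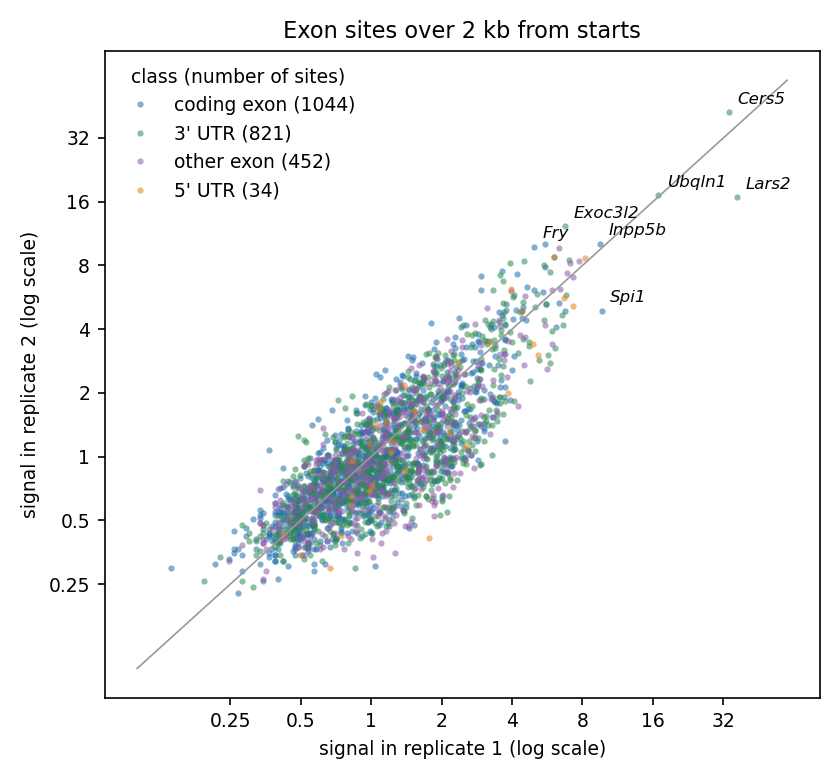
Signal of each of the 2351 exon sites in replicate 1 (x axis) and replicate 2 (y axis), both on log scales, coloured by class, with the line of equality. Most points follow the line; Lars2 and Spi1 lie below it and Fry above it.

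Most coding sites reached past an edge of their exon, although a median of 90.03% of a site's bases were exonic. The median exon length at a coding site was 255 bp and the median width of a site 220 bp. The site lay wholly inside the exon in 403 of 1044 cases (38.6%). Internal exons held 722 coding sites and last exons 313. In 3′ UTRs, 811 of 821 sites (98.8%) lay in the last exon, whose median length was 2385 bp, and 760 (92.6%) lay wholly inside it.

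Longer coding exons held sites more often. Coding sequence was joined into unbroken pieces where exons of isoforms overlap. Of pieces up to 100 bp, 0.167% held the midpoint of a site, compared with 0.743% of those of 150 to 200 bp, 3.91% of those of 500 to 1000 bp and 6.15% of those over 1000 bp. Length alone raises this share. The density also rose, from 24.2 sites per Mb in pieces up to 100 bp to 57.8 in pieces of 500 to 1000 bp, and was 38.9 in pieces over 1000 bp.

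**Figure D4:**
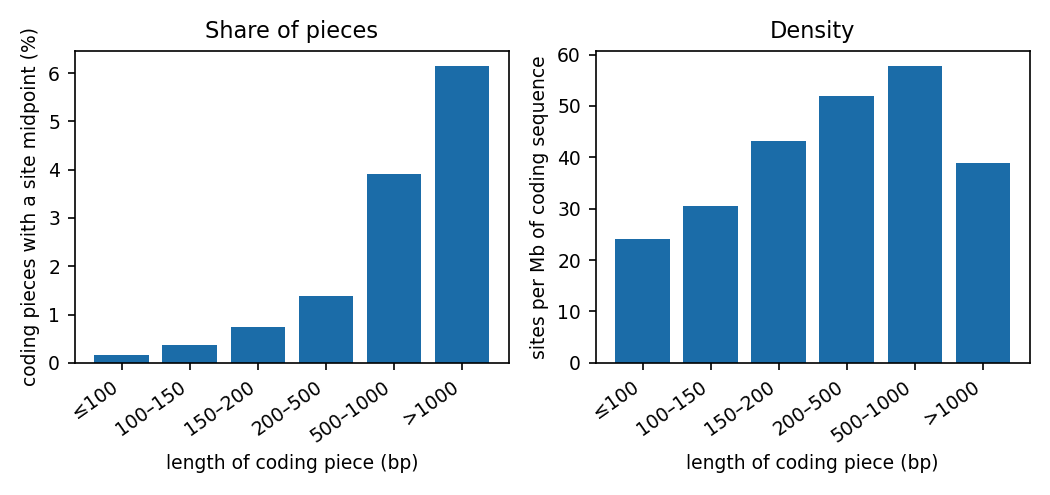
Coding pieces by length in bp (x axis of both panels): the percentage that holds the midpoint of a shared site (left) and the number of such sites per Mb of coding sequence (right). The share rises with length throughout, and the density is highest at 500 to 1000 bp.

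Coding sites were richer in G, C and CpG than intronic sites. In the central 150 bp, the median GC content was 58.0% in coding sites, 55.3% in 3′ UTR sites and 52.7% in intronic sites. The CpG ratio, which is the count of CpG over that expected from the base composition, had medians of 0.436, 0.248 and 0.222. A ratio above 0.6 is typical of CpG islands. It was found in 296 coding sites (28.4%), 9.62% of 3′ UTR sites and 4.72% of intronic sites, against 76.6% of sites within 500 bp of starts. The CpG-rich coding sites had median signals of 1.04 in replicate 1 and 0.938 in replicate 2, and the other coding sites 0.926 and 0.852. Among the 100 strongest coding sites, 44 were CpG-rich, and among the 100 weakest 30 were.

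Coding exons that held a site also differed in sequence from those without a peak in either library. Windows of 150 bp at the centre of the exon piece were compared, for 1001 pieces with a site and 152645 without. The median GC content was 57.3% with a site and 50% without, the median CpG ratio 0.455 and 0.334, and the median length 202 and 124 bp. The pieces were not matched in length or base composition, and short pieces bring flanking intron into the window.

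Several sequences bound by transcription factors were more frequent in the exons with a site. The SP/KLF sequence GGGCGG, which is GC-rich and common at promoters, was present in 12.5% of them and 3.24% of the others. CAAGGTCA, bound by the NR5A receptors that drive ovarian steroidogenic genes, was present in 4.995% and 1.00%. The CTCF core was present in 2.50% and 0.638%, and the AP-1 sequences TGACTCA and TGAGTCA in 3.20% and 1.91%. The AT-rich GATA sequence AGATAA (5.19% and 6.24%) and the RUNX sequence TGTGGT (7.79% and 10.9%) were less frequent with a site. So was AGAACA (8.69% and 13.4%), which is only part of a full steroid receptor element. The share of base composition in these differences was not tested.

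**Figure D5:**
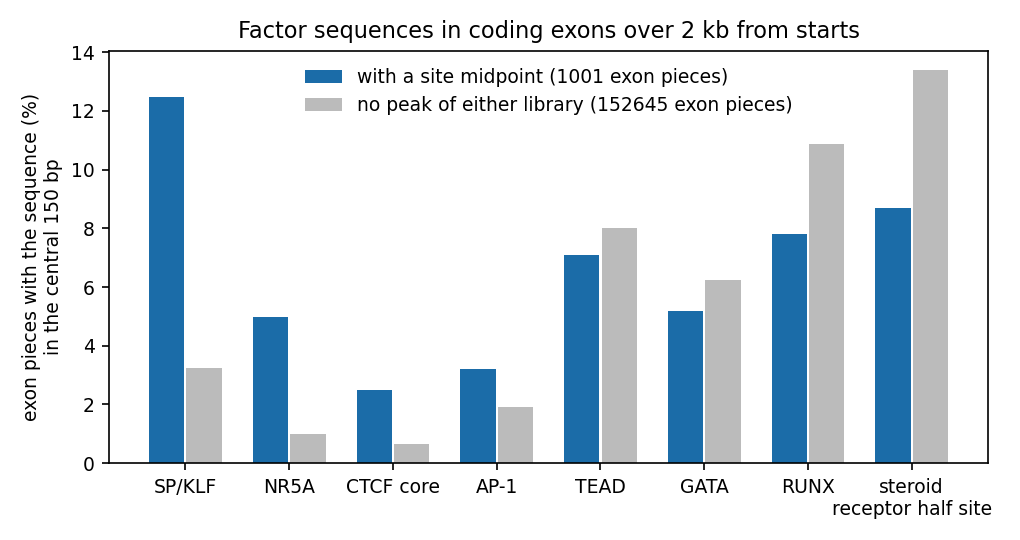
Percentage of coding pieces (y axis) with each factor sequence (x axis) in their central 150 bp, for 1001 pieces with a site midpoint (blue) and 152645 without a peak in either library (grey). The first 4 sequences are more frequent with a site, and the last 4 less frequent.

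Sites in exons and sites in introns held different proportions of these sequences. AP-1 sequences were present in 5.27% of coding and 6.94% of 3′ UTR sites, against 9.23% of intronic sites. SP/KLF was present in 13.9% and 11.6%, against 7.59%. NR5A was present in 59 coding sites (5.65%) and 30 sites of 3′ UTRs (3.65%), against 6.44% of intronic sites. The CTCF core was present in 47 sites of 3′ UTRs (5.72%), 30 coding sites (2.87%) and 20 of other exons (4.42%), against 2.67% of intronic and 3.23% of intergenic sites. All sequences were searched on both strands with no mismatch, so degenerate sites are not counted.

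Sites of 3′ UTRs and of other exons with the CTCF core were strong in replicate 1 but not in replicate 2. For the 47 sites of 3′ UTRs the median was 1.84 in replicate 1 but 0.961 in replicate 2, while those without it had 1.14 and 0.938. The 20 sites of other exons had 1.98 and 1.01, and those without the core 1.12 and 0.926. Coding sites with the core had 1.26 and 1.03, and other coding sites 0.947 and 0.875. Intronic and intergenic sites were not split in this way. A footprint was listed in both libraries for 91.5% of the 3′ UTR sites with the core and 79.2% of those without. Of 614 footprints in 3′ UTR sites whose overlap covered more than 50% of the footprint of each library, 26 contained the core and 22 the SP/KLF sequence. Of 656 such footprints in coding sites, 13 contained the core, 31 the SP/KLF sequence, 2 the NR5A sequence and 1 an AP-1 sequence.

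Exon sites were often close to starts of transcripts that are not protein-coding. Within 2 kb of any annotated start lay 675 of the exon sites (28.7%), against 11.8% of intronic sites. The share was 26.5% for coding sites, 15.5% for 3′ UTRs and 56.6% for other exons. Of the 277 coding sites concerned, 213 were near the start of an isoform of their own gene that is not classed as protein-coding. Such an isoform is called a non-coding isoform here. Another 36 were near a lincRNA or antisense gene. Other exons belong to isoforms with no coding sequence there, and 216 of their 452 sites lay in a first exon. Their nearness to such starts thus follows in part from how the class was defined. The share for exon sequence without a site was not measured. Starts of RefSeq transcripts on GRCm38.p6, predicted models included, were counted as well. Within 500 bp of a start in either annotation lay 166 coding sites (15.9%) and 42 sites of 3′ UTRs (5.12%), against 6.31% of intronic sites. The coding sites near such starts had a median CpG ratio of 0.551, and those farther away 0.425.

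The strongest coding site lay in Inpp5b, in exon 7 of 24 (chr4:124751421-124751660). Its signal was 9.51 for replicate 1 and 10.1 for replicate 2, averaging 9.82 ± 0.447 (SD, n = 2), well above the promoter median. The site was 9663 bp from the nearest protein-coding start, but 187 bp from that of Gm12915, a processed transcript, and its CpG ratio was 0.880. The site in Nos3, the endothelial nitric oxide synthase (chr5:24383421-24383760), had a signal of 4.98 and 6.11. It covered exon 25 of 26, and its midpoint was 9 bp from the start of Gm15587, an antisense gene. The footprint with the cyclic AMP response element shown above lies in this site. The site in Atn1, which encodes the corepressor atrophin-1 (chr6:124745501-124745860), had 5.58 and 5.27, a CpG ratio of 1.57 and a non-coding isoform of the same gene starting 56 bp away.

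Other strong coding sites had no start within 2 kb in either annotation. In Zfp771, a zinc finger gene (chr7:127254061-127254380), the signal was 5.55 and 7.89, and the nearest start was 6488 bp away in GENCODE and 6446 bp away in RefSeq. Its CpG ratio was 1.49. In Scnn1a, the alpha subunit of the epithelial sodium channel (chr6:125331061-125331260), it was 5.44 and 5.99, with a ratio of 1.03. Fbxl22, an F-box gene (chr9:66511641-66512000), had 4.63 and 6.31, with a ratio of 1.25. All 3 ratios were above 0.806, the median of sites within 500 bp of starts. The site in Synpo2l, a gene for an actin-associated protein of striated muscle (chr14:20661021-20661280), had 6.36 and 5.30. It lay in the last exon, had a CpG ratio of 0.519 and held the CTCF core in the footprint shown above.

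The libraries differed most among the strongest coding sites in Spi1, B430305J03Rik and Fry. Spi1, which encodes PU.1, a factor of macrophages and B cells, had 9.68 in replicate 1 and 4.89 in replicate 2 at chr2:91115141-91115360, in its last exon. Fry, a large microtubule-associated protein, had the opposite order, 4.98 and 9.81, at chr5:150466281-150466460 in exon 52 of 61. Its CpG ratio was 0.358, and it was the only one of the 12 strongest coding sites with an AP-1 sequence in the central window. B430305J03Rik, whose exon overlaps Rap2b, a gene for a small GTPase, had 5.53 and 10.1. That site was 656 bp from a curated RefSeq start. The remaining sites among the 12 strongest were those of Notch4, an endothelial Notch receptor, with 6.04 and 8.76, and Ccdc194, with 6.73 and 4.88. The Notch4 site was 560 bp from the start of a non-coding isoform. Its footprints of 28 bp found in both libraries lay wholly in bases that are also annotated as UTR. Of these 12 sites, 9 were CpG-rich and 3 lay within 500 bp of a start in either annotation, against 28.4% and 15.9% of all coding sites.

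The strongest exon sites of all lay in 3′ UTRs. The site in Cers5, a ceramide synthase (chr15:99735641-99736060), had a signal of 33.9 in replicate 1 and 42.3 in replicate 2, or 38.1 ± 5.95 (SD, n = 2). That in Lars2, the mitochondrial leucyl-tRNA synthetase (chr9:123461901-123462100), had 36.7 and 16.8, so the libraries differed more than 2-fold there. That in Ubqln1, a shuttle to the proteasome (chr13:58177601-58177820), had 16.9 and 17.2. A megablast search of the assembled chromosomes listed no other stretch of at least 50 bp with 80% identity for the Cers5 and Ubqln1 sites. Such a search begins from long exact matches and can miss diverged stretches, so it does not show that none exist. For the Lars2 site it listed 14, the longest an alignment of 203 bp with 87.2% identity. Whether reads of those copies add to its signal was not tested. With the same limits, a more sensitive blastn search found no match to the mitochondrial genome in any of the 2351 sites.

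The other leading sites of 3′ UTRs had signals above the promoter median of each library. Exoc3l2, an exocyst-related gene, had 6.73 in replicate 1 and 12.3 in replicate 2, and its central window held both the CTCF core and the SP/KLF sequence. Bcat2, the mitochondrial branched-chain aminotransferase, had 4.51 and 8.37, and Akt1s1, an inhibitor of mTORC1, had 5.48 and 8.06. Replicate 2 was the higher in all 3. Slc4a3, an anion exchanger, had 6.77 and 5.78, and H13, signal peptide peptidase, had 5.10 and 5.85. Btbd19 had 7.03 and 8.50 and Lrrc24 5.79 and 7.46. None of the 10 strongest 3′ UTR sites was within 500 bp of a start in either annotation, and 5 of the 10 were CpG-rich. Near-identical copies, with at least 95% identity over 90% of the site, existed for 15 sites of 3′ UTRs and 5 coding sites. None of these was among the sites named here.

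Sites in 5′ UTRs were few, and several were at starts that the protein-coding set does not list. Pura, a single-strand DNA binding protein, had 8.18 in replicate 1 and 8.65 in replicate 2. Sf3b5, a subunit of the splicing factor SF3B, had 6.06 and 8.79 and was 39 bp from a curated RefSeq start. Msra, a methionine sulfoxide reductase, had 7.31 and 5.16 and was 14 bp from the start of a non-coding isoform. A930004D18Rik had 6.67 and 5.61, Tmbim1 had 3.96 and 6.21, and Pop5, a subunit of RNase P, had 4.42 and 4.87. The start of a non-coding isoform was 8 bp away in Pop5. Of the 34 sites, 15 (44.1%) lay within 500 bp of a start in either annotation.

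Among the other exons, the strongest sites lay in Dbp, Ubtf and Fdft1. Dbp, a circadian output factor, had 7.71 and 8.39. Ubtf, a factor of RNA polymerase I, had 7.05 and 8.21. Fdft1, squalene synthase of cholesterol synthesis, had 6.33 in replicate 1 and 9.65 in replicate 2. Each lay in a retained-intron isoform, and the start of a non-coding isoform of the same gene was 128, 279 and 185 bp away. Of all 452 sites in other exons, 169 (37.4%) were within 500 bp of a start in either annotation.

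The 2351 sites fell in 2006 genes, or 10.7% of the 18699 autosomal protein-coding genes with exon sequence more than 2 kb from starts. Of these genes, 283 held at least 2 sites and 46 at least 3. The amount of such exon sequence mattered: its median was 4814.5 bp in genes with a site and 2699 bp in the others. A site was found in 2.51% of genes with up to 1 kb of it and in 27.8% of genes with over 10 kb. A promoter peak in both libraries was present in 77.4% of the genes with an exon site and 64.0% of those without. Within genes of 2 to 5 kb of far exon sequence, 11.3% of those with a promoter peak and 9.07% of those without one held a site.

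The 8 genes taken as those with most sites held 4 to 6 each. In all, 6 genes held 4 sites, and those with the highest summed signal were taken. Itsn1, an endocytic scaffold, held 6 sites, of which 3 lay in its 3′ UTR, and the strongest of these had 3.66 in replicate 1 and 4.49 in replicate 2. Syne1, which encodes the giant nuclear envelope protein nesprin-1, held 6, all in coding exons and with signals up to 1.61 and 1.31. Synpo, the actin-associated synaptopodin, held 5, the strongest with 4.53 and 5.76. Dst, the cytoskeletal linker dystonin, held 5, with up to 2.64 and 1.68. Ankrd11, a chromatin regulator, held 4, and the strongest, with 6.86 and 7.35, lay in a retained intron. Sptb, a beta spectrin, held 4, up to 1.85 and 3.21. Tchh, trichohyalin of hair follicles, held 4 in a single exon of 5685 bp, up to 1.60 and 1.78.

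Scarb1 was the gene of ovarian lipid supply with most sites. It encodes the receptor that takes up HDL cholesterol in steroid-producing cells. All 4 of its sites lay in exons of non-coding isoforms. Their signals were 2.36 and 2.40, 2.16 and 2.80, 1.21 and 1.56, and 1.10 and 1.07 in replicates 1 and 2. In the same order, the start of a non-coding isoform of Scarb1 was 296, 284, 106 and 745 bp away. Of 14 theca and steroidogenesis genes that could hold a site, 4 did (28.6%), beside the background of 10.7%. Among them was also Star, which carries cholesterol into mitochondria, with 1.26 and 0.930 in its 3′ UTR. Stard3 had 1.32 and 1.91, at 215 bp from the start of a non-coding isoform. The listed genes have a median of 3370.5 bp of far exon sequence.

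Of 18 granulosa cell genes, 4 (22.2%) held a site, beside 10.7% of all genes. Amh, the anti-Müllerian hormone of growing follicles, had a coding site in its last exon with 2.12 in replicate 1 and 2.87 in replicate 2 (chr10:80807361-80807600). That site was stronger than the Amh promoter, which had 1.11 and 1.87. Inha, the inhibin alpha subunit, had 1.45 and 1.94 in its last exon (chr1:75509635-75509920), below its promoter at 4.19 and 5.86. Bmpr1b, a BMP receptor of granulosa cells, had 1.19 and 0.774, and Cyp19a1, the aromatase of oestrogen synthesis, had 1.02 and 0.743 in a non-coding isoform.

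Of 11 immediate early genes, 4 (36.4%) held a site, beside 10.7% of all genes. The listed genes had a median of 1383 bp of far exon sequence each. Jun had 2.95 in replicate 1 and 2.58 in replicate 2 in its 3′ UTR. Junb had 1.496 and 1.78, at 251 bp from the start of a non-coding isoform. Fosb had 1.27 and 0.750, and Myc 0.549 and 0.422. Of 23 extracellular matrix genes, Lamb1, Mmp14, Col6a3 and Col4a2 held sites, with 1.60 and 1.26 in Lamb1, a laminin chain, and 1.13 and 1.02 in Mmp14, a membrane-bound metalloprotease. Notch3, the Notch receptor of smooth muscle and pericytes, had 2.77 and 1.54 in exon 24. The megablast search listed 1 other stretch for the Notch3 site, an alignment of 200 bp with 88.5% identity. Whether reads of that copy add to its signal was not tested. Notch3 and Lmod1 were the only 2 of 12 genes of the smooth muscle and pericyte list with a site. Of 15 stromal genes Esr1, the oestrogen receptor alpha, held the only site, with 0.624 and 0.688, and of 13 signalling repressors Socs2. None of 14 oocyte genes, 8 macrophage genes and 7 hepatocyte genes on the lists held one. These genes have little far exon sequence, with medians of 1152.5, 2057.5 and 1726 bp in that order. Of all genes with 1 to 2 kb of it, 5.80% held a site. The macrophage list does not include Spi1, whose coding site was among the 12 strongest. Each list is small, and a difference of a few genes from the background cannot be read as particular to it.

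The tissue label could be checked at promoters. All 12 markers of granulosa, theca, luteal and stromal cells had a promoter peak in both libraries, Foxl2 with 3.81 and 4.28 and Star with 4.50 and 7.15. The oocyte markers Zp1, Zp3 and Nobox, and Ptprc, Cd3e, Alb and Hba-a1 of other cells, had none. In whole tissue, a weak site in all cells and a strong site in a few cells cannot be told apart. That holds for each signal above.

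Among exon sites with a signal of at least 2 in one library, Cntnap1 and Tmprss13 had the largest ratios of replicate 2 to replicate 1. Cntnap1, a protein of the axon and glia junction, had 2.95 and 7.14, and Tmprss13 had 1.80 and 4.29. The Cntnap1 site held repeated sequence, with 34.7% of its window masked. The lowest ratios were all in 3′ UTRs. Trim56 had 2.15 in replicate 1 and 0.649 in replicate 2, Ephb2 had 2.00 and 0.617, and Serpina9 had 2.10 and 0.547.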

How the data were processed

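DNase-seq of aged mouse ovary was deposited for each of 2 libraries as narrow peaks, footprints and bases with a false discovery rate, on mm10 per the labels. The authors scaled the peak strength, a signal, by depth. The deposited p-value column of the footprints holds a constant label, and the deposited false discovery rates of cut rate, listed below 0.05, served only to place an alternative midpoint. The aligner, the callers, the depth and how CAST alleles were mapped were not given in the sources used here.

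Peaks of both libraries sharing at least 1 bp were joined into regions, each with the strongest signal per library. The region's midpoint set its class in the order coding exon, 5′ UTR, 3′ UTR, other exon. Starts were those of protein-coding transcripts. Sequences (GRCm38.p6) were searched in the 150 bp around the midpoint. Copies were sought with BLAST 2.17.0. Python 3.11.15, NumPy 2.4.6 and pandas 2.3.3 were used, and the class and overlap steps were tested on simulated data.

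The members, gene lists and sequences were chosen with earlier results of these data known. Named are the 12 strongest coding, 6 strongest 5′ UTR, 10 strongest 3′ UTR and 3 strongest other-exon sites by mean rank, the 8 genes with most sites, the 15 strongest sites in list genes, and the 3 highest and 3 lowest ratios. A few of these are not reported here. Bmpr1b, Cyp19a1, Myc, Col6a3, Col4a2, Lmod1, Esr1 and Socs2 complete the counts of their lists. The comparisons with RefSeq starts, distance bins, promoter peaks, CpG-rich sites and partial copies were added after the data were seen. Alternatives were the shorter lists, a stricter overlap, other distances, annotations and windows, and each library left out.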

Additional observations from a re-analysis of the deposited data

How the results depend on the processing

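No paired analysis was possible because the series has 1 group. With the shorter peak lists the members numbered 1308 (coding 571, 3′ UTR 461, other exons 248), 1202 genes had an exon at a member midpoint (2042 with the longer lists, counting every gene there), median signals were 1.28 in coding exons and 1.47 in 3′ UTRs, and 93.3% had a footprint in both libraries. A reciprocal overlap of 50% gave 0.976 for coding exons and 82.9% with a footprint. Beyond 2 kb of any annotated start, 19 sites of 5′ UTRs and 196 of other exons were left. Beyond 5 kb of protein-coding starts, 21 sites of 5′ UTRs were left and 76.9% had a footprint. With basic transcripts alone, 0 sites fell in other exons. Placing UTRs before coding sequence in the order of classes gave 883 coding sites, 44 in 5′ UTRs and 972 in 3′ UTRs. Some sites called coding here are thus UTR in another transcript. Requiring the footprints to overlap each other gave 62.6%. AP-1 sequences were in 6.90% of whole coding sites and 7.38% of 300 bp windows, and the CTCF core in 4.31% of the latter.

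Leaving out either library gave 1512 to 1578 coding sites and 1095 to 1261 in 3′ UTRs, medians of 0.688 to 0.743 and 0.828 to 0.883, footprints in 73.9% to 82.7%, and 58.4 to 60.9 coding sites and 37.7 to 43.4 sites of 3′ UTRs per Mb. The cause of these shifts was not tested, except that a single library lists more sites because none has to be shared. The counts of members under the other settings stayed within 1.5 times the values reported. Depth is unknown, so no limit of detection can be given.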
